A study of Mus musculus with 17 samples.

Results

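The heat shock chaperone genes are described here as 10 named genes, chosen by gene name in both count tables of the series: Hspa1a, Hspa1b, Hspa8, Hsph1, Dnajb1, Hsp90aa1, Hsp90ab1, Hspd1, Hspe1 and Hsf1. They are 10 of 54532 annotated genes, and all 10 had enough reads to be tested in both tables. The study asked what versikine, a fragment cut from the matrix proteoglycan versican, does to the immune cells of a tumor and to dendritic cells in particular. Bulk RNA-seq was made from 17 mouse samples. In MutuDC, a mouse conventional dendritic cell line, the groups were Vkine + LPS (n = 3), EV + LPS (n = 3), Vkine (n = 3) and EV (n = 2). In CD45 cells labelled as tumor, the groups were Vkine (n = 3) and EV (n = 3). Titles of the CD45 samples hold the letter R in every EV sample and the letter L in every Vkine sample. EV replicate 3 holds both letters, and its title repeats in part that of another EV sample. What the letters stand for is not given, so their effect cannot be told apart from that of versikine. Vkine stands for versikine and EV is a common abbreviation of empty vector, while LPS is lipopolysaccharide, a bacterial cell wall molecule. The labels do not give the LPS dose or time, how versikine was supplied, mouse strain or age, or whether replicates were separate cultures or animals, so p-values measure only the spread between these samples.

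Libraries held 15938185 to 21263321 counted reads in MutuDC and 13814620 to 18125269 in the CD45 samples. The 10 genes took 0.837% to 1.10% of the counts in MutuDC and 0.620% to 0.776% in CD45 cells. MutuDC libraries held all 12 dendritic cell markers examined, with Clec9a at 283 to 427 CPM (read counts scaled to a common library size). Their 7 T cell markers summed to 0.766 to 3.03 CPM and their 8 neutrophil markers to at most 1.54 CPM. The CD45 libraries carried leukocyte markers in every sample, and fibroblast and endothelial markers as well. Their source label reads bone marrow where their type and description say tumor. In CD45 Vkine replicate 1 the mitochondrial share of counts was 10.6%, against 2.47% to 5.56% in the other 5 CD45 libraries.

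Heat shock proteins are chaperones that bind unfolded or partly folded proteins. HSP70 proteins, served by J-domain co-chaperones and by HSP110 exchange factors, take up short exposed stretches of newly made or damaged chains, and HSP90 completes the folding of clients such as kinases and receptors. In the mitochondrion, Hspd1 and Hspe1 form a folding chamber and its lid. The transcription factor HSF1 binds inverted repeats of NGAAN, the heat shock element, and switches on the inducible members under heat or proteotoxic stress, whereas Hspa8 and Hsp90ab1 are made abundantly without stress. In dendritic cells, chaperones are known to carry peptides and to take part in antigen processing.

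Hspa1a (chr17:34969190-34972156, minus strand, GRCm38) and Hspa1b (chr17:34956436-34959238, minus strand), the stress-inducible HSP70 genes, lie 9951 bases apart and encode near-identical proteins. Of 1923 aligned coding bases 1915 were identical (99.6%), and 47.1% of the 100-base stretches of Hspa1a transcripts also occur in Hspa1b transcripts. Gm20481, which overlaps Hspa1a by 2225 bases on the other strand, had no reads in any library. The counting is not stated to use strand, so whether Hspa1a lost reads in that overlap cannot be told. Reads from the stretches shared by Hspa1a and Hspa1b cannot be assigned to either gene, so values of each are uncertain and the sum of the 2 genes is given beside them. The sum adds the deposited counts, and whether reads that fit both genes were counted is not stated. It may therefore be too low as well, also in the ratio to Hspa8. The upstream sequences show how far the likeness extends. Below are the 250 bases before each start, 5′ to 3′, from RefSeq on GRCm38.p6, with the 2-unit heat shock element GAANNTTC in capitals.
Hspa1a, chr17:34972157-34972406, minus strand: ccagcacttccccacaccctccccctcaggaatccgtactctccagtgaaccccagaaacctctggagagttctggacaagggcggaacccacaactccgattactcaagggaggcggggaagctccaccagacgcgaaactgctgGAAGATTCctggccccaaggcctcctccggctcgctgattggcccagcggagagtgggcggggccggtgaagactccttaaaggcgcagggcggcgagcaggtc
Hspa1b, chr17:34959239-34959488, minus strand: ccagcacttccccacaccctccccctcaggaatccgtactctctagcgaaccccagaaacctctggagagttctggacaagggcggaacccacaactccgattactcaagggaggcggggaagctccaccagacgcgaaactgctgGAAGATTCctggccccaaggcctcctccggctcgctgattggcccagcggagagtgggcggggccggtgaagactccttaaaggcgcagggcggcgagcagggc
They were identical at 247 of 250 positions (98.8%). The differences, written as the Hspa1a base, the position counted from 1 at the 5′ end and the Hspa1b base, were C44T, T47C and T249G. Both held GAAGATTC from 104 to 97 bases before the start, a match to letters and not a measured binding site.

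Windows of 250 bases before to 50 bases after the start were given for 6 of the 10 genes, in 9 windows; Hspa8, Hsp90aa1, Hsp90ab1 and Hsf1 had none. Hspd1 (chr1:55077835-55088243, minus strand) and Hspe1 (chr1:55088132-55091307, plus strand) are transcribed away from each other and overlap by 112 bases at their starts. A run of overlapping 3-unit elements lies between the Hspe1 start and a start of Hspd1, shown in capitals as read on the strand of each gene. Hsph1 (chr5:149614287-149636376, minus strand) held a 3-unit element just past its start. These are shown because they are the 3-unit matches among the genes described.
Hspe1, chr1:55088053-55088082, plus strand: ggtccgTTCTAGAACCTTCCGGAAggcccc
Hspd1, chr1:55088053-55088082, minus strand: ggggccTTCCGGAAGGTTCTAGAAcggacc
Hsph1, chr5:149636282-149636306, minus strand: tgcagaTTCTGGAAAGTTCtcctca
The run starts 89 bases before the Hspe1 start and, on the other strand, 144 bases before the downstream of the 2 Hspd1 starts. The 3-unit motif GAANNTTCNNGAA, searched on both strands, was in 198 of 32851 windows of all genes (0.603%) and in 4 of the 9 windows here, from 3 genes. Those 4 are not separate sites, since the Hspd1 and Hspe1 windows share the run and the overlapping Hsph1 windows hold the same element. The shorter motifs within the 3-unit motif were commoner, GAANNTTC in 7.86% and TTCNNGAA in 8.52% of all windows. CCAAT was in 37.4% of all windows and in 6 of the 9, from 5 genes. TATAAA was in 13.6% of all windows and in none of the 9.

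Levels between genes were compared per length, as CPM divided by gene length in kilobases. In resting EV MutuDC, Hsp90ab1 was the highest of the 10 at 1072 ± 31.8 CPM per kb (SD, n = 2), followed by Hspa8 at 857 ± 5.66 and Hsp90aa1 at 412 ± 0.0707. The mitochondrial pair followed, Hspd1 at 253 ± 2.69 and Hspe1 at 127 ± 5.59 CPM per kb. Dnajb1, Hsph1 and Hsf1 were far lower, at 32.8 ± 0.735, 18.9 ± 0.403 and 8.06 ± 0.0785 CPM per kb. The inducible HSP70 genes were lowest, Hspa1b at 3.83 ± 0.947 and Hspa1a at 0.731 ± 0.0517 CPM per kb. This rank order was the same in the means of all 4 MutuDC groups. On the deposited FPKM, which used another length, Hsph1 stood above Dnajb1 in all 4, at 69.5 against 35.4 in EV. In Vkine + LPS Hsf1 (34.5) also stood above Dnajb1 (31.4) on FPKM. The CD45 order differed from it in the place of the inducible genes: in Vkine samples Hspa8 stood at 686 ± 65.2, Hsp90ab1 at 489 ± 21.4, Hspa1b at 388 ± 47.9, Hspa1a at 279 ± 21.1 and Hsp90aa1 at 242 ± 26.4 CPM per kb (SD, n = 3). In EV samples Hspa1b and Hspa1a also followed Hspa8 and Hsp90ab1, at 226 ± 74.8 and 179 ± 43.6 CPM per kb. The 2 tables were scaled separately and come from different cells, so no test was made between them.

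**Figure D1:**
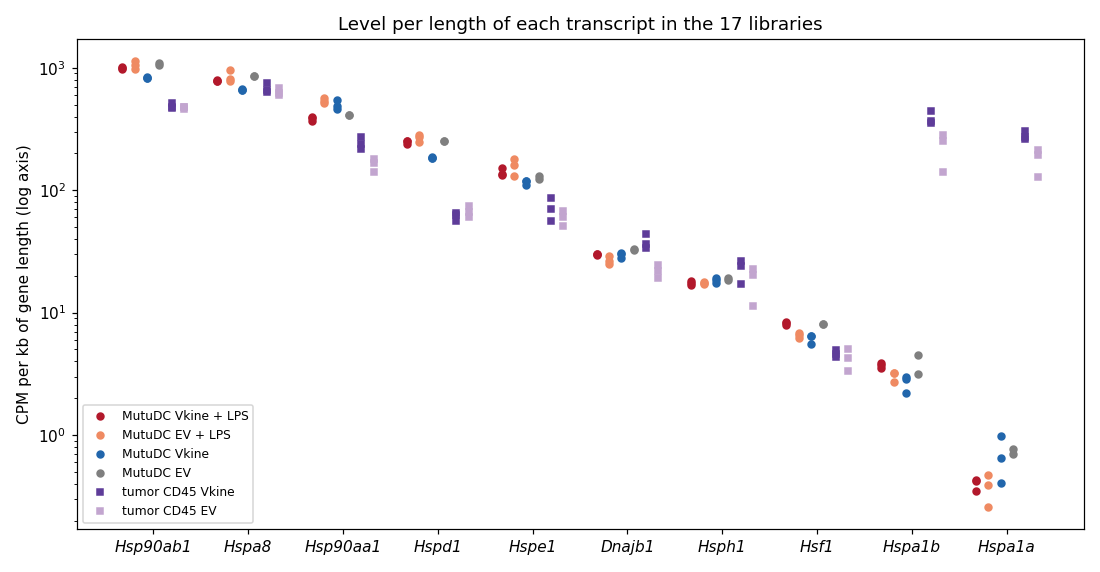
Level of each gene in CPM per kb of gene length on a log axis, 1 point per library (circles MutuDC, squares CD45). Hspa1a and Hspa1b lie lowest of the 10 genes in MutuDC and near Hsp90aa1 in the CD45 libraries, while Hspa8 and Hsp90ab1 lie at or near the top in every group.

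The ratio of inducible to constitutive HSP70 transcripts, (Hspa1a + Hspa1b)/Hspa8 per kb within a library, was 0.00332 to 0.00609 over the 11 MutuDC libraries. In CD45 libraries it was 0.970, 0.845 and 1.12 in the Vkine replicates, against 0.704, 0.450 and 0.745 in the EV replicates. All 3 CD45 Vkine libraries lay above all 3 EV libraries. The ratios given here and further on were chosen after the values were seen and are descriptions with no test. Of 14 immediate early genes, which tissue dissociation is known to induce, the summed level ran from 15240 to 27860 CPM in CD45 libraries and from 376 to 1811 CPM in MutuDC. Their part in the level of Hspa1a and Hspa1b was not tested.

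In resting MutuDC, 5 of the 10 genes were lower and 1 was higher with versikine. Hspd1, Hsf1, Hspa8, Hsp90ab1 and Hspa1b were lower in Vkine cells than in EV cells, and Hsp90aa1 was higher. None was called higher once either EV library or Vkine replicate 3 was left out. Over all 13357 genes tested, 16.9% were called higher and 18.3% lower. The median log2 fold change of the 10 was -0.25, against 0.01 over all genes tested. The mitochondrial share of counts moved with the groups, at 0.936% to 1.03% in Vkine + LPS, 1.73% to 1.96% in EV + LPS, 1.72% to 1.86% in Vkine and 1.36% to 1.41% in EV. So did the sum of 8 macrophage markers, at 253.5 to 283 CPM in Vkine + LPS, 121 to 138 CPM in EV + LPS, 119 to 129 CPM in Vkine and 175 to 185 CPM in EV, with up to 2 of the 8 at 0 in a library. Their part in the MutuDC differences was not tested. A gene was called where edgeR's quasi-likelihood test gave an adjusted p under 0.05 over all genes.

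LPS in EV cells gave 5 calls, with Hsp90aa1 and Hspe1 higher and Dnajb1, Hsf1 and Hspa1a lower in EV + LPS than in EV. Here 17.2% of all genes were called higher and 17.6% lower, so 2 of 10 higher was close to the background. In versikine cells LPS raised 6 of the 10, namely Hspd1, Hsf1, Hsp90ab1, Hspa8, Hspa1b and Hspe1, and lowered Hsp90aa1. The background for Vkine + LPS against Vkine was 27.6% higher and 24.3% lower. Between the LPS-treated groups, Vkine + LPS against EV + LPS, Hsf1 was higher and Hsp90aa1 lower, against a background of 22.8% higher and 19.2% lower, so neither count of 1 in 10 exceeded it. Without EV + LPS replicate 2, 5 were lower, and the share over all genes is not given here for that fit. These comparisons share groups, so they are not independent of one another.

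The interaction, the versikine difference with LPS minus that without, was called for 7 of the 10 genes. It was positive for Hspa1b, Hsf1, Hspd1, Dnajb1, Hsp90ab1 and Hspa8, and negative for Hsp90aa1. Over all genes, 25.5% had a positive and 23.7% a negative call. The EV group has 2 libraries, and without either of them 2 of the 10 genes, not 6, were called positive. The share over all genes is not given here for those fits. The median over the 10 was 0.27 on the log2 scale, against -0.02 over all genes. The split of calls moved with scaling: on deposited FPKM values with a pseudocount of 1, 38.9% of called genes were positive in the interaction, against 51.8% on counts. The same change gave a share of calls that were higher of 62.1%, against 48.0% on counts, for Vkine against EV. That share was 38.9%, against 53.3% on counts, for Vkine + LPS against Vkine, and 42.7%, against 54.3%, for Vkine + LPS against EV + LPS.

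**Figure D2:**
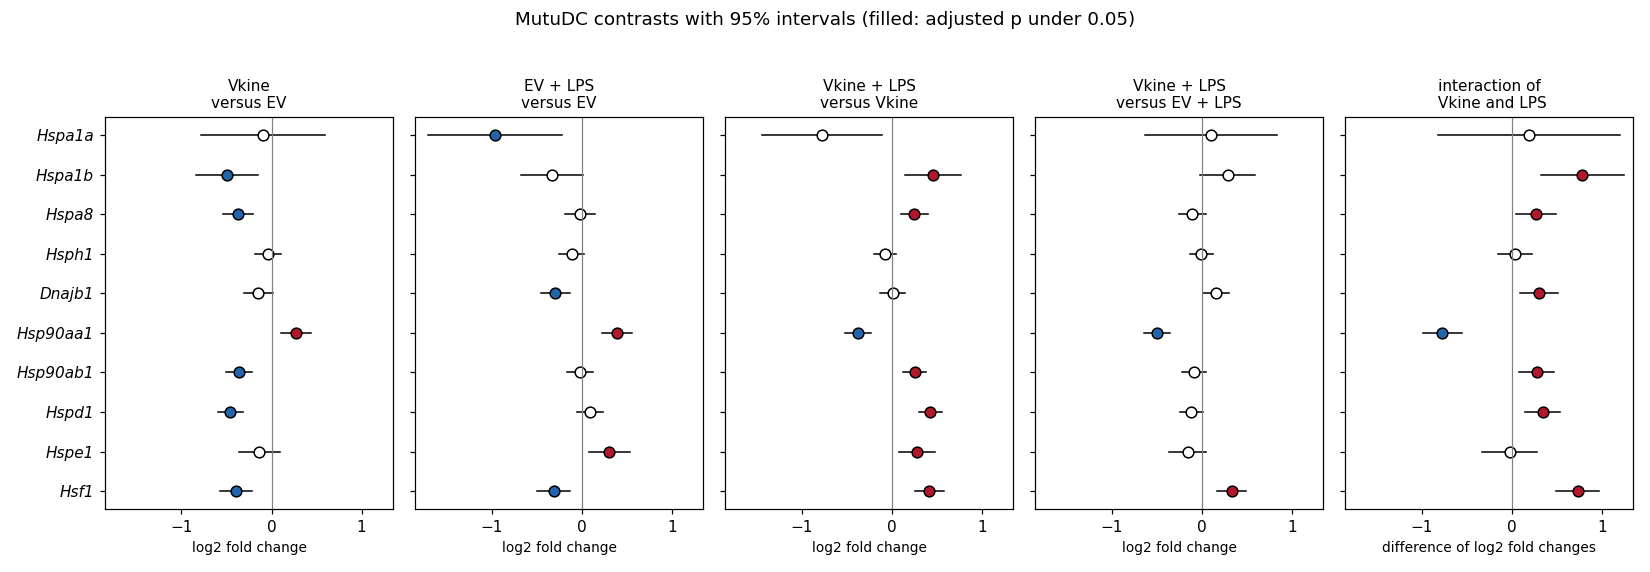
Log2 fold change of each gene in the MutuDC comparisons with 95% intervals; filled points were called at an adjusted p under 0.05, red higher and blue lower. The interaction was -0.77 for Hsp90aa1, 0.73 for Hsf1 and 0.78 for Hspa1b.

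Hsf1 (chr15:76477422-76501913, plus strand) encodes the factor that drives the inducible members. Its level was 59.8, 58.3 and 56.4 CPM in the Vkine + LPS replicates, against 46.4, 43.8 and 48.3 CPM in EV + LPS. Without LPS it was 46.0, 39.0 and 45.6 CPM in Vkine, against 57.6 and 56.9 CPM in EV. Each pair of groups was fully apart, with Vkine above EV under LPS and below it without. The log2 difference was -0.40 ± 0.08 (SE) for Vkine against EV (adjusted p = 0.00177) and 0.33 ± 0.08 for Vkine + LPS against EV + LPS (adjusted p = 0.00236). The interaction was 0.73 ± 0.11 (adjusted p = 6.88e-05), and leaving out any single library kept it between 0.66 and 0.77. LPS raised Hsf1 in Vkine cells by 0.42 ± 0.08 (adjusted p = 0.000257). In EV cells it was lower with LPS (log2 difference -0.31 ± 0.09, adjusted p = 0.00948), a call lost without EV replicate 1 (-0.30, adjusted p = 0.0763) or EV replicate 2 (-0.32, adjusted p = 0.0600). Hsf2, another heat shock factor from the regulator list, had group means of 19.6 ± 1.28 CPM in Vkine + LPS and 30.2 ± 2.41 in EV + LPS, and of 27.5 ± 2.01 in Vkine and 18.7 ± 0.401 in EV. Its interaction was -1.18 (adjusted p = 4.31e-06), of opposite sign to that of Hsf1.

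The inducible HSP70 genes were scarce in MutuDC, Hspa1a with 13 to 58 reads and Hspa1b with 104 to 214 reads per library. Hspa1a had 1.27, 1.26 and 1.04 CPM in Vkine + LPS and 1.16, 0.764 and 1.40 CPM in EV + LPS. In resting cells it had 2.92, 1.92 and 1.19 CPM in Vkine and 2.28 and 2.06 CPM in EV. Vkine and EV overlapped under both conditions, and the Vkine values were spread widest. The log2 difference of Vkine from EV was -0.10 ± 0.33 (adjusted p = 0.85), and that of Vkine + LPS from EV + LPS was 0.10 (adjusted p = 0.844). The log2 difference of EV + LPS from EV was -0.96 ± 0.35 (adjusted p = 0.0437). That call was lost when any of 8 libraries was left out, all but Vkine replicates 1 and 3 and EV + LPS replicate 3, with adjusted p between 0.0541 and 0.188, and also with upper-quartile factors (adjusted p = 0.0513), on FPKM (adjusted p = 0.0765) and with only the 2 groups fitted (adjusted p = 0.0594). For Vkine + LPS against Vkine the difference of -0.77 ± 0.32 narrowly missed the threshold (adjusted p = 0.0505), and it passed without Vkine replicate 3 (-1.03, adjusted p = 0.0108), EV + LPS replicate 2 (-0.77, 0.0286) or EV + LPS replicate 3 (-0.77, 0.0396). It also passed with DESeq2 or upper-quartile factors, with no filter or a minimum of 1 CPM and with only the 2 groups, at -0.78 to -0.82 with adjusted p of 0.0287 to 0.0470.

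Hspa1b had 9.89, 10.5 and 10.8 CPM in Vkine + LPS and 9.04, 8.94 and 7.61 CPM in EV + LPS. The resting cells had 8.36, 8.10 and 6.21 CPM in Vkine and 8.86 and 12.6 CPM in EV. Vkine lay above EV with LPS and below it without, with no overlap in either pair. It fell by 0.49 ± 0.16 in Vkine against EV (adjusted p = 0.0263), but EV replicate 2 was the highest of all 11 libraries and without it the difference was -0.21 (adjusted p = 0.464); without Vkine replicate 3 it was -0.37 (adjusted p = 0.105), and on FPKM -0.32 (adjusted p = 0.10). Under LPS the difference was 0.29 ± 0.15 (adjusted p = 0.125). In EV cells the LPS difference was -0.33 (adjusted p = 0.131), and -0.56 (adjusted p = 0.0346) without EV replicate 1. LPS raised it in Vkine cells by 0.46 ± 0.15 (adjusted p = 0.0159), a call lost without Vkine replicate 3 (0.34, adjusted p = 0.0833) or Vkine + LPS replicate 3 (0.43, adjusted p = 0.0529), or on FPKM (0.27, adjusted p = 0.0942). The interaction of 0.78 ± 0.22 (adjusted p = 0.00734) was 0.47 (adjusted p = 0.11) without EV replicate 2 and 0.48 (adjusted p = 0.0504) on FPKM. With both genes summed, Vkine against EV was -0.42 (adjusted p = 0.0481), Vkine + LPS against Vkine 0.27 (adjusted p = 0.124) and the interaction 0.69 (adjusted p = 0.0137).

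Hspa8 (chr9:40800984-40810087, plus strand), the constitutive HSP70 of the cytosol, had 3334, 3443 and 3388 CPM in Vkine + LPS and 3461, 3351 and 4123 CPM in EV + LPS. Without LPS it had 2811, 2879 and 2852 CPM in Vkine and 3705 and 3670 CPM in EV. The 3 Vkine libraries lay below all 8 others, which overlapped among themselves. The log2 difference from EV was -0.37 ± 0.08 (adjusted p = 0.00156), and LPS raised Hspa8 in Vkine cells by 0.25 ± 0.07 (adjusted p = 0.0073), a call lost on FPKM with a pseudocount of 1 (0.13, adjusted p = 0.122). In EV cells the LPS difference was -0.02 (adjusted p = 0.889), and between the LPS-treated groups it was -0.11 (adjusted p = 0.247), where the call was made without EV + LPS replicate 2 (-0.16, adjusted p = 0.022). Its interaction of 0.27 ± 0.11 barely passed (adjusted p = 0.046). It was lost when any library other than EV + LPS replicates 2 and 3 was left out, with adjusted p between 0.0652 and 0.177, and also with DESeq2 (0.24, adjusted p = 0.0622), upper-quartile factors (0.18, adjusted p = 0.185) or FPKM (0.11, adjusted p = 0.357). Hspa8 contains the snoRNA genes Snord14c, Snord14d and Snord14e on its own strand, whose reads could not be separated here.

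Dnajb1 (chr8:83608193-83612653, plus strand), the J-domain partner that hands clients to HSP70, had 96.1, 94.8 and 96.1 CPM in Vkine + LPS and 85.1, 79.9 and 92.8 CPM in EV + LPS. In the absence of LPS it had 96.3, 98.3 and 90.0 CPM in Vkine and 103 and 107 CPM in EV. EV stood above every other library, and Vkine + LPS above every EV + LPS library. With LPS, Dnajb1 fell by 0.29 ± 0.08 in EV cells (adjusted p = 0.00679), a call lost without EV replicate 2 (-0.26, adjusted p = 0.0715) or with only the 2 groups fitted (-0.29, adjusted p = 0.0525). Vkine differed from EV by -0.15 ± 0.08 without LPS (adjusted p = 0.142) and by 0.16 ± 0.07 with it (adjusted p = 0.0765), the second called without EV + LPS replicate 3 (0.21, adjusted p = 0.0137). In Vkine cells the LPS difference was 0.01 (adjusted p = 0.907), with a sign that changed under other scalings. The interaction of 0.30 ± 0.10 (adjusted p = 0.0209) was lost without EV replicate 1 (0.29, adjusted p = 0.0729) or EV replicate 2 (0.24, adjusted p = 0.133), with upper-quartile factors (0.22, adjusted p = 0.0941), with no filter (0.27, adjusted p = 0.0675) and on FPKM (0.14, adjusted p = 0.211). Hsph1, the HSP110 exchange factor of HSP70, was not called in any comparison on counts and ran from 123 to 139.6 CPM over all 11 libraries. Its largest difference on counts was -0.11 in EV + LPS against EV (adjusted p = 0.216), and its interaction was 0.04 (adjusted p = 0.756). On FPKM it was called lower in Vkine + LPS than in Vkine (-0.19, adjusted p = 0.0112 by limma with a pseudocount of 1), against -0.07 (adjusted p = 0.319) on counts.

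Hsp90aa1 (chr12:110690605-110702728, minus strand), the stress-responsive cytosolic HSP90, had an interaction of opposite sign to that of the other 6 called genes. It had 1559, 1438 and 1523 CPM in Vkine + LPS and 2047, 2107 and 2236 CPM in EV + LPS. The resting levels were 1807, 1914 and 2147 CPM in Vkine and 1621 and 1621 CPM in EV. Every Vkine + LPS library was below every other library, and Vkine and EV + LPS overlapped at the top. LPS raised it in EV cells by 0.39 ± 0.08 (adjusted p = 0.000963) while in Vkine cells it fell by 0.38 ± 0.07 (adjusted p = 0.000261). With LPS, the difference of Vkine from EV was -0.50 ± 0.07 (adjusted p = 3.63e-05), and the interaction was -0.77 ± 0.10 (adjusted p = 1.69e-05). Leaving out any single library kept the interaction between -0.83 and -0.70. The rise in resting Vkine cells, 0.27 ± 0.08 (adjusted p = 0.0118), was lost without EV replicate 1 (0.28, adjusted p = 0.0786), EV replicate 2 (0.29, adjusted p = 0.0727) or Vkine replicate 3 (0.20, adjusted p = 0.0524).

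Hsp90ab1 (chr17:45567775-45573271, minus strand), the constitutive cytosolic HSP90, had 2951, 3036 and 2985 CPM in Vkine + LPS and 3169, 2949 and 3403 CPM in EV + LPS. Without LPS it had 2496, 2544 and 2470 CPM in Vkine and 3282 and 3147 CPM in EV. Vkine without LPS was again below all other libraries. The log2 difference from EV was -0.36 ± 0.07 (adjusted p = 0.000669), and LPS raised Hsp90ab1 in Vkine cells by 0.26 ± 0.06 (adjusted p = 0.00234), a call narrowly lost on FPKM (0.13, adjusted p = 0.0568). In EV cells the LPS difference was -0.02 (adjusted p = 0.855). With LPS, Vkine differed from EV by -0.09 (adjusted p = 0.279), by -0.14 (adjusted p = 0.0271) without EV + LPS replicate 2 and by -0.16 (adjusted p = 0.0362) on FPKM. The interaction of 0.28 ± 0.09 (adjusted p = 0.0203) was lost without EV replicate 1 (0.21, adjusted p = 0.15) or EV replicate 2 (0.27, adjusted p = 0.0699), with upper-quartile factors (0.19, adjusted p = 0.115) and on FPKM (0.12, adjusted p = 0.249).

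The cytosolic HSP90 genes have coding sequences that are 76.8% identical and share no stretch of 50 bases. Within a library, Hsp90aa1/Hsp90ab1 per kb was 0.403, 0.361 and 0.389 in Vkine + LPS and 0.493, 0.545 and 0.501 in EV + LPS. Without LPS it was 0.552, 0.574 and 0.663 in Vkine and 0.377 and 0.393 in EV. The resting Vkine and the EV + LPS libraries all lay above the Vkine + LPS and EV libraries. Hspa8/Hsp90ab1, the ratio of the constitutive cytosolic pair, stayed within 0.762 to 0.845 over all 11 libraries, with group means of 0.790 in Vkine + LPS, 0.800 in EV + LPS, 0.793 in Vkine and 0.800 in EV.

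**Figure D3:**
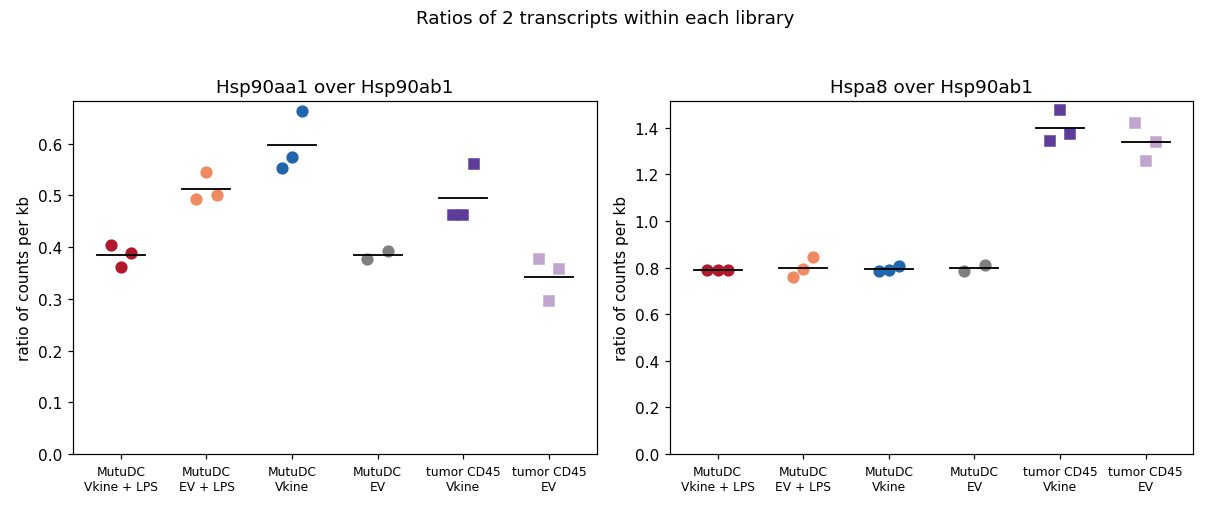
Ratio of Hsp90aa1 to Hsp90ab1 and of Hspa8 to Hsp90ab1, both per kb, within each library of every group. In MutuDC the first ratio spans 0.361 to 0.663, highest in Vkine and EV + LPS, and the second spans 0.762 to 0.845.

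Hspd1, the mitochondrial HSP60, had 665, 629.9 and 668 CPM in Vkine + LPS and 721, 659 and 748 CPM in EV + LPS. Resting cells had 483, 482 and 493 CPM in Vkine and 672 and 662 CPM in EV. The Vkine libraries were again the lowest 3 of 11. Hspd1 fell by 0.46 ± 0.07 in Vkine against EV (adjusted p = 7.66e-05), and LPS raised it in Vkine cells by 0.43 ± 0.06 (adjusted p = 2.48e-05). In EV cells the LPS difference was 0.09 (adjusted p = 0.331), and 0.14 (adjusted p = 0.0492) without EV + LPS replicate 2. The LPS-treated groups differed by -0.12 (adjusted p = 0.134), and by -0.17 (adjusted p = 0.00937) without EV + LPS replicate 2, -0.17 (adjusted p = 0.0388) with upper-quartile factors and -0.19 (adjusted p = 0.0138) on FPKM. The interaction was 0.34 ± 0.09 (adjusted p = 0.00539), on the threshold without EV replicate 1 (0.29, adjusted p = 0.05) and lost on FPKM (0.18, adjusted p = 0.0776). Hspe1, the HSP10 lid of the chamber, had 197, 225 and 202 CPM in Vkine + LPS and 238, 191 and 266 CPM in EV + LPS. Without LPS it had 174, 162 and 177 CPM in Vkine and 194 and 182 CPM in EV.

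Vkine was lowest for Hspe1 as well, but its difference from EV was -0.13 ± 0.11 and not called (adjusted p = 0.35). LPS raised Hspe1 by 0.28 ± 0.10 in Vkine cells (adjusted p = 0.0211), a call lost without Vkine replicate 2 (0.24, adjusted p = 0.0908) or Vkine + LPS replicate 2 (0.22, adjusted p = 0.108), with upper-quartile factors (0.23, adjusted p = 0.0586) and on FPKM (0.16, adjusted p = 0.181). In EV cells LPS raised it by 0.31 ± 0.11 (adjusted p = 0.0364). That call was lost without EV replicate 1, EV replicate 2, EV + LPS replicate 1, EV + LPS replicate 3 or Vkine + LPS replicate 3, with differences of 0.20 to 0.35 and adjusted p of 0.0517 to 0.205, and with only the 2 groups fitted (0.31, adjusted p = 0.125). Vkine + LPS differed from EV + LPS by -0.16 (adjusted p = 0.197), and by -0.28 (adjusted p = 0.000911) without EV + LPS replicate 2. Its interaction was -0.02 (adjusted p = 0.901). The ratio Hspe1/Hspd1 per kb ran from 0.603 to 0.647 in Vkine, against 0.492 to 0.516 in EV, without overlap. The genes overlap by 112 bases on opposite strands and the counting is not stated to use strand, so reads from that stretch cannot be told apart.

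**Figure D4:**
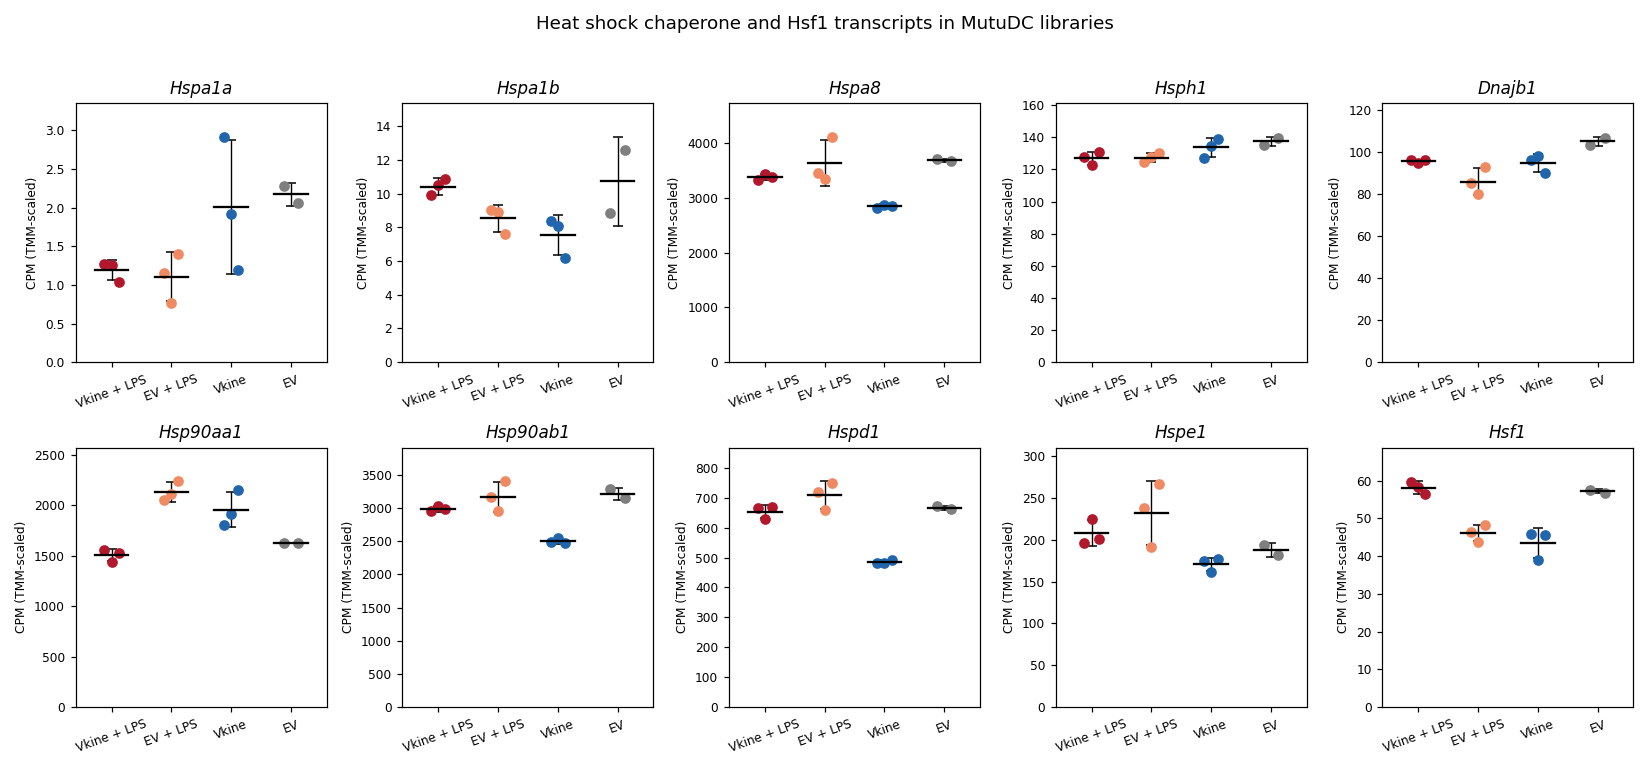
CPM of each gene in MutuDC by group, from left Vkine + LPS, EV + LPS, Vkine and EV; points are libraries, lines are means and error bars are SD. Hspa8, Hsp90ab1 and Hspd1 are lowest in Vkine without LPS, and Hsp90aa1 is lowest in Vkine + LPS.

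The other genes of the chaperone network were read in lists beside the same background. Of 8 subunits of the TRiC chaperonin, which folds actin and tubulin, 7 rose and none fell in Vkine + LPS against Vkine, among them Cct3 (log2 difference 0.76) and Cct7 (0.50). In Vkine against EV 3 of the 8 fell, with Cct3 at -0.39, Cct7 at -0.39 and Cct8 at -0.24, and none rose. Medians over the 8 were 0.29 and -0.18, against 0.01 over all genes in each comparison. Of all genes tested, 27.6% rose and 24.3% fell in Vkine + LPS against Vkine, and 16.9% rose and 18.3% fell in Vkine against EV. Of 15 mitochondrial chaperones and proteases, 8 rose and 1 fell in Vkine + LPS against Vkine, with the matrix protease subunit Clpp at 0.81, the HSP70 exchange factor Grpel1 at 0.52 and the protease Lonp1 at 0.42. In Vkine against EV the same list held 5 that fell and 1 that rose, with Clpp at -0.65, Lonp1 at -0.41 and Grpel1 at -0.38. The medians over the 15 were 0.21 for Vkine + LPS against Vkine and -0.13 for Vkine against EV, beside the same 0.01 over all genes. Both comparisons use the same Vkine libraries, with opposite sign, so they are not independent. In Vkine + LPS against EV + LPS, 2 TRiC subunits were higher and 2 lower, and 5 mitochondrial genes higher and 1 lower. There 22.8% of all genes were higher and 19.2% lower. The interaction was positive for 4 and negative for 1 TRiC subunit, and positive for 6 and negative for 1 mitochondrial gene. Over all genes it was 25.5% positive and 23.7% negative.

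Among 17 HSP90 co-chaperones, 7 fell and 4 rose in Vkine against EV, where 18.3% of all genes fell and 16.9% rose, so that the 4 were near the background. Those that fell included Stip1 (-0.28), which links HSP70 to HSP90, and the immunophilins Fkbp4 (-0.35) and Fkbp5 (-0.38). In Vkine + LPS against Vkine 7 rose and 3 fell, with the kinase-client adaptor Cdc37 at 0.73, Fkbp4 at 0.40, Stip1 at 0.36 and Cdc37l1 at -0.57, against 27.6% of all genes that rose and 24.3% that fell. The medians over the 17 were 0.16 there and -0.11 for Vkine against EV. With LPS, Vkine against EV gave 2 higher and 5 lower, including Chordc1 at -0.40 and Cdc37 at 0.40, against 22.8% higher and 19.2% lower over all genes. The interaction was called for 11 of the 17, with 6 positive and 5 negative, against 25.5% positive and 23.7% negative over all genes.

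Of 20 tested HSP70, HSP110 and J-domain partners, Hspa4l, an HSP110 relative, rose (0.52) and Bag2, an HSP70 cofactor, fell (-0.50) in Vkine against EV, and no other was called, against 16.9% higher and 18.3% lower over all genes. In Vkine + LPS against Vkine 8 rose, Bag2 (0.45) among them, and Hspa4l fell (-0.78), where 27.6% of all genes rose and 24.3% fell. Between the LPS-treated groups 3 were higher and 4 lower, including Bag3 at 0.43, neither much above the background of 22.8% higher and 19.2% lower. LPS in EV cells raised 4 and lowered none, where 17.2% of all genes rose and 17.6% fell. Of 10 small heat shock proteins 3 could be tested, and none was called in the 4 pairwise comparisons. The endoplasmic reticulum list, 19 tested genes, many of them known targets of the unfolded protein response, split in both directions, with 4 higher and 6 lower in Vkine against EV and 8 higher and 5 lower in Vkine + LPS against Vkine. Over all genes 16.9% were higher and 18.3% lower in the first comparison and 27.6% higher and 24.3% lower in the second. Its members with the smallest p included Dnajb9 at 0.66 and Hyou1 at -0.49 for Vkine against EV, and Herpud1 at 0.73 and Dnajb9 at -0.73 for Vkine + LPS against Vkine.

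The regulator list, 9 of 12 genes tested, held 1 call in Vkine against EV, Hsf2 at 0.56 (adjusted p = 0.000608), below the background of 16.9% higher and 18.3% lower. LPS in EV cells raised Hsf2 by 0.69 and Hsbp1, which binds HSF1 trimers, by 0.48, and Hdac6 (-0.25) and Ep300 (-0.56) fell, so 2 of 9 were called in each direction against 17.2% of all genes higher and 17.6% lower. Immediate early genes moved with versikine: 13 of 14 were called higher in Vkine against EV, with Fos at 3.13 and Egr1 at 2.91, and 12 of 14 in Vkine + LPS against EV + LPS. Over all genes 16.9% and 22.8% were called higher in these comparisons. Their summed level was 851, 872 and 867 CPM in Vkine + LPS, against 442, 376 and 443 CPM in EV + LPS. It was 1811, 1726 and 1495 CPM in Vkine, against 589 and 574 CPM in EV. Their part in the chaperone differences was not tested.

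Genes whose log2 CPM followed a chaperone most closely over the 11 MutuDC libraries were listed for the 4 with the widest range of group means. For Hspd1 these were the nucleolar genes Nop56 (Pearson r = 0.992), Ncl (0.986) and Npm1 (0.985). For Hsp90aa1 they were Nap1l1 (0.990), Ckap2 (0.985) and Nbn (0.982). Those nearest to Hspa1b were Dedd2 (0.936), Mapk14 (0.912) and Actr5 (0.911), and to Hspa1a they were Phgdh (0.950), Tpgs2 (0.948) and Cnn2 (0.945). The points share 4 groups and 1 scaling, so these values describe likeness over the libraries only.

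In CD45 cells labelled as tumor, none of the 10 genes was called between Vkine and EV, where 0.0214% of the 14006 genes tested (3 genes) were called higher and 0.00714% (1 gene) lower. At an unadjusted p under 0.05 there were 1683 genes, 4 of them among the 10. The 4 were Dnajb1, Hspa1a, Hspa1b and Hsp90aa1, and for these every Vkine sample lay above every EV sample, as for 9.20% of all genes. The median log2 difference of the 10 was 0.28, against -0.002 over all genes. In bulk samples fewer cells of a type and less RNA per cell cannot be told apart.

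Dnajb1 had 108, 116 and 139.6 CPM in the Vkine replicates and 70.3, 61.5 and 78.2 CPM in the EV replicates, a log2 difference of 0.79 ± 0.16 (95% interval 0.44 to 1.14, adjusted p = 0.233). Hspa1a had 784, 802 and 900 CPM in Vkine and 579.9, 384 and 627 CPM in EV (0.65 ± 0.20, adjusted p = 0.292). Hspa1b had 986, 1039 and 1240 CPM in Vkine and 796, 396 and 707 CPM in EV (0.78 ± 0.25, adjusted p = 0.297). The EV groups of the inducible pair were spread by a low EV replicate 2, the lowest of the 6 libraries for 8 of the 10 genes. Without it, Hspa1a differed by 0.46 (adjusted p = 0.615), Hspa1b by 0.53 (adjusted p = 0.576) and Dnajb1 by 0.70 (adjusted p = 0.450). Summing Hspa1a and Hspa1b gave 0.72 (adjusted p = 0.301).

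Hsp90aa1 had 856, 931 and 1061 CPM in Vkine and 709, 555 and 653 CPM in EV (0.57 ± 0.17, adjusted p = 0.287). Hsp90ab1 had 1417, 1540 and 1447 CPM in Vkine and 1439, 1432 and 1393 CPM in EV, with overlap and a difference of 0.05 (95% interval -0.29 to 0.39, adjusted p = 0.93). The ratio Hsp90aa1/Hsp90ab1 per kb was 0.461, 0.461 and 0.560 in Vkine, against 0.376, 0.296 and 0.358 in EV, without overlap. By DESeq2, Dnajb1 (0.80, adjusted p = 0.0036) and Hsp90aa1 (0.58, adjusted p = 0.0368) were called higher, where DESeq2 called 1.44% of all genes higher and 0.403% lower. With no filter on low counts edgeR called Dnajb1 (adjusted p = 0.000999), Hspa1b (adjusted p = 0.00192) and Hspa1a (adjusted p = 0.0212) higher, along with 1.66% of all genes, and 0.383% lower.

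The other 5 genes overlapped between the CD45 groups. Hspa8 had 2730, 3265 and 2854 CPM in Vkine and 2929, 2586 and 2675 CPM in EV, a log2 difference of 0.11 (adjusted p = 0.835). Hsph1 had 125, 175 and 191 CPM in Vkine and 147, 82.8 and 165 CPM in EV, a difference of 0.32 (adjusted p = 0.658) that was 0.07 (adjusted p = 0.966) without EV replicate 2. Neither the constitutive HSP70 nor the HSP110 factor was thus apart by group. The mitochondrial Hspd1 had 172, 166 and 149 CPM in Vkine and 196, 159 and 175 CPM in EV, with a difference of -0.12 (adjusted p = 0.78). Its partner Hspe1 had 126, 82.2 and 104 CPM in Vkine and 99.7, 74.6 and 89.9 CPM in EV, with a difference of 0.24 (adjusted p = 0.634). Hsf1 itself had 30.7, 32.6 and 35.2 CPM in Vkine and 30.1, 23.6 and 35.6 CPM in EV, a difference of 0.14 (adjusted p = 0.802). In the CD45 cells no gene of the pathway lists was called, among them 19 HSP70 partners, 17 HSP90 co-chaperones, 8 TRiC subunits and 15 mitochondrial genes tested. Hsf2 averaged 20.7 ± 0.530 CPM in Vkine and 26.1 ± 1.17 CPM in EV (SD, n = 3 each).

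**Figure D5:**
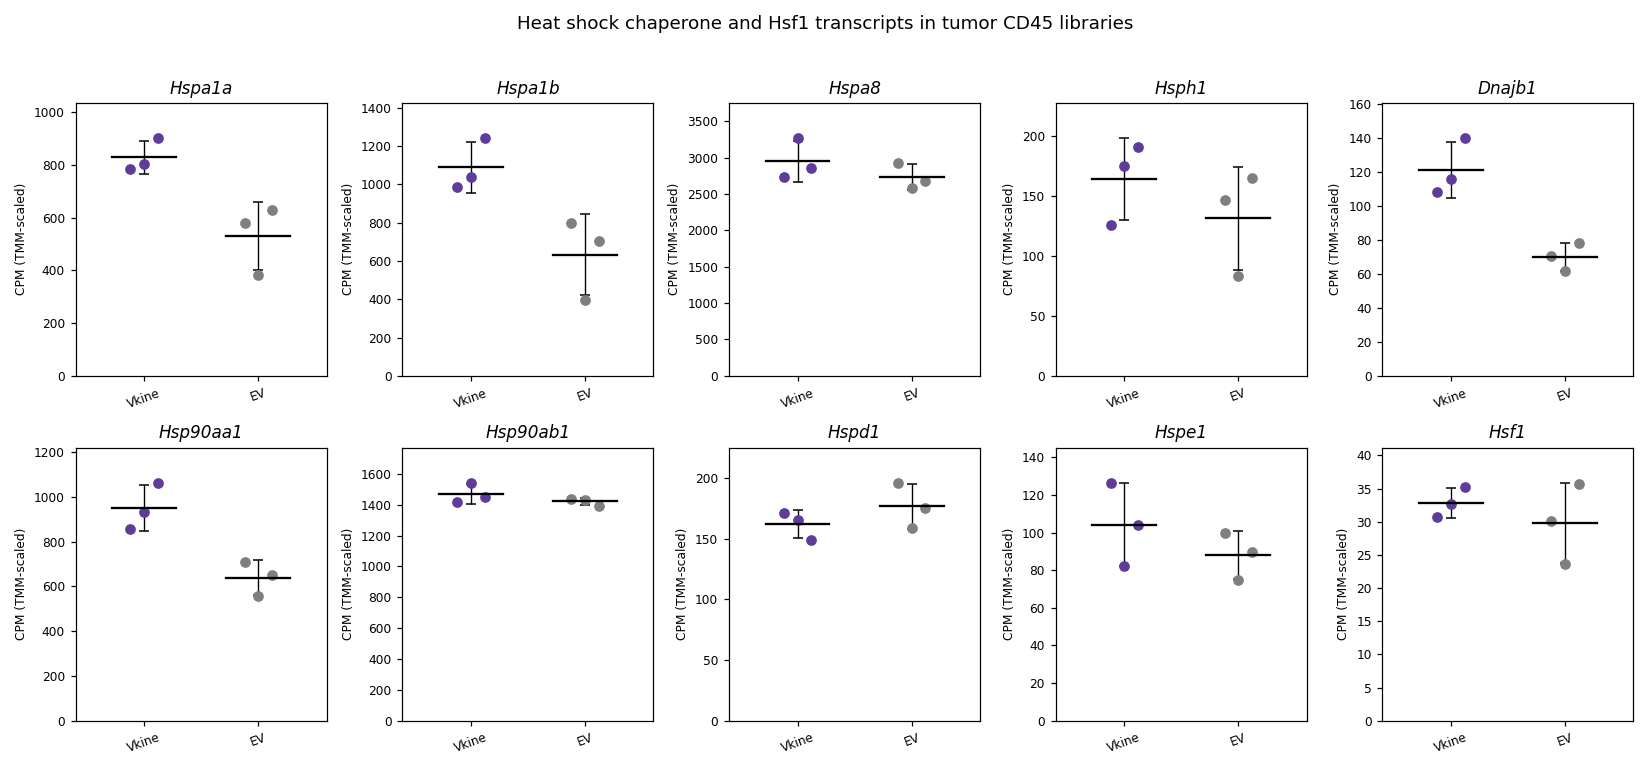
CPM of each gene in CD45 libraries, Vkine left and EV right; points are libraries, lines are means and error bars are SD. For Hspa1a, Hspa1b, Dnajb1 and Hsp90aa1 the 3 Vkine libraries lie above the 3 EV libraries, and for the other 6 genes the groups overlap.

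Markers of cell types also differed between the CD45 groups. The sum of 8 neutrophil markers was 4015, 3408 and 5271 CPM in Vkine, against 1789, 323 and 1982 CPM in EV. Macrophage markers summed to 6002, 7330 and 5105 CPM in Vkine, against 6860, 8438 and 7938 CPM in EV. The 7 T cell markers summed to 30.5, 23.2 and 32.5 CPM in Vkine, against 14.0, 7.11 and 10.2 CPM in EV. EV replicate 2, low in Hspa1a, Hspa1b, Dnajb1 and Hsp90aa1, was lowest in neutrophil and dendritic cell markers and in the immediate early genes, which summed to 23530, 22150 and 27860 CPM in Vkine, against 22100, 15240 and 25750 CPM in EV. Fibroblast markers summed to 257.5, 156 and 240 CPM in Vkine, against 194.5, 107 and 98.9 CPM in EV. Endothelial markers summed to 96.3, 94.3 and 189 CPM in Vkine, against 150, 45.3 and 45.9 CPM in EV. The 7 erythroid markers summed to 314 CPM in Vkine replicate 1 and to at most 28.5 CPM in the other libraries. Their part in the chaperone differences was not tested.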

How the data were processed

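RNA from MutuDC cells and CD45 cells was sequenced in bulk. Raw counts per gene were deposited by the authors in separate tables for MutuDC and CD45 cells, and FPKM values were deposited beside them. The submitters' processing notes name fastp, STAR, featureCounts 1.5.0-p3, DESeq2 1.20.0 and build GRCm38, with no settings; they do not state whether counting used strand. The 10 genes and the gene lists were chosen with earlier results of these data known. Counts were fitted with edgeR 4.0.16 (R 4.3.3; TMM scaling, filterByExpr, robust quasi-likelihood F test, two-sided), the 11 MutuDC libraries in one model over 4 groups and the 6 CD45 libraries apart. P-values were adjusted by Benjamini-Hochberg over 13357 and 14006 genes tested and called under 0.05. CPM are TMM-scaled, and a standard error is the log2 fold change divided by the square root of F. Levels per kb use the deposited gene length, since the deposited MutuDC FPKM used another. With EV at 2 libraries, the spread is shared over the 4 groups.

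Named genes were the 10, up to 4 called genes of smallest p in each pathway list, and 3 genes of highest correlation for each of 4 members with the widest range. Alternatives were DESeq2 1.42.0, its size factors, upper-quartile factors, no filter, a minimum of 1 CPM, limma 3.58.1 on log2(FPKM + 1) and log2(FPKM + 0.1), a replicate block, only the groups compared, and each library left out. Scripts were tested on simulated data. Promoters came from RefSeq, and annotated gene coordinates equal those of the reference annotation.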

Additional observations from a re-analysis of the deposited data

Results flagged for a closer look

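For 7 of the 10 genes the interaction of versikine and LPS in MutuDC was called by edgeR's test, 6 positive and 1 negative. Over all genes tested, 25.5% were called positive and 23.7% negative. On the log2 scale, the versikine difference with LPS minus that without was 0.78 for Hspa1b, 0.73 for Hsf1, 0.34 for Hspd1, 0.30 for Dnajb1, 0.28 for Hsp90ab1 and 0.27 for Hspa8, and -0.77 for Hsp90aa1. Those of Hsf1 and Hsp90aa1 passed the test in every alternative run, and the other calls were lost on FPKM with a pseudocount of 1.

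For Hspa1b and Dnajb1, every Vkine sample lay below every EV sample in resting MutuDC and above every EV sample in CD45 cells. With only 2 EV libraries, a lack of overlap says little in resting MutuDC. Its share over all genes was not counted in MutuDC, with or without LPS. The 2 genes were picked by this lack of overlap and by their opposite directions, so neither is support for a difference. In CD45 cells 9.20% of all genes had every Vkine sample above every EV sample. The Vkine minus EV difference for Hspa1b was -0.49 in resting MutuDC and 0.78 in CD45 cells, and for Dnajb1 -0.15 and 0.79. The difference between the cell sources was not tested, and of these 4 values only that of Hspa1b in resting MutuDC was called. Without MutuDC EV replicate 2 it was -0.21. With LPS the MutuDC samples had the same direction as the CD45 cells, since every Vkine + LPS sample lay above every EV + LPS sample for both genes (0.29 for Hspa1b, adjusted p = 0.125, and 0.16 for Dnajb1, adjusted p = 0.0765, neither called by edgeR).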

How the results depend on the processing

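Hspa8, Hsp90ab1, Hspd1 and Hsf1 in Vkine against EV, and Hsp90aa1 and Hsf1 in the interaction, kept direction and call in every alternative run. So did Hsp90aa1 in EV + LPS against EV, and Hsp90aa1, Hspd1 and Hsf1 in Vkine + LPS against Vkine. The same held for Hsp90aa1 and Hsf1 in Vkine + LPS against EV + LPS. No called gene reversed in any alternative run. Counts of the 10 genes called that moved by over 1.5 times were as follows. In EV + LPS against EV, 1 was higher with the replicate block and with only the 2 groups compared, which also gave 1 lower. In Vkine + LPS against Vkine, 2 were higher on FPKM with either pseudocount, and 2 were lower with DESeq2 or upper-quartile factors, no filter, 1 CPM, FPKM or only the 2 groups. Of all genes, 20.4% were higher there on FPKM with a pseudocount of 1. The share that was lower was 27.8% with upper-quartile factors, 14.7% with no filter, 26.0% with 1 CPM and 32.0% on that FPKM. In Vkine + LPS against EV + LPS, 2 were lower with upper-quartile factors and 3 on FPKM. Of all genes, 22.8% were lower with those factors and 23.4% on FPKM with a pseudocount of 1. In the interaction, 3 were positive with upper-quartile factors and 1 on FPKM. In CD45 cells 3 were higher with no filter (Hspa1a, Hspa1b and Dnajb1) and 2 by DESeq2, where 1.66% and 1.44% of all genes were called higher.

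Leaving out each library gave 0 to 1 higher and 4 to 5 lower in Vkine against EV, 1 to 3 higher and 0 to 3 lower in EV + LPS against EV, and 5 to 6 higher and 1 to 2 lower in Vkine + LPS against Vkine. It gave 1 to 2 higher and 1 to 5 lower in Vkine + LPS against EV + LPS, with 5 lower without EV + LPS replicate 2, when Hspa8, Hsp90ab1, Hspd1 and Hspe1 joined. The interaction gave 2 to 6 positive and 1 negative.

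Differences that changed sign were all uncalled. On FPKM, Hsph1 in Vkine against EV was 0.043. In EV + LPS against EV, Hspa8 was 0.019 and Hsp90ab1 0.017 with upper-quartile factors, and 0.014 and 0.016 on FPKM. Dnajb1 in Vkine + LPS against Vkine was -0.010 by DESeq2 or with its factors, -0.039 with upper-quartile factors, -0.015 with no filter, -0.107 and -0.110 on FPKM and -0.011 with only the 2 groups. In the interaction Hsph1 was -0.049 with upper-quartile factors and -0.121 and -0.122 on FPKM, and Hspe1 was 0.022 with the replicate block. With a library left out, Hspa1a ran from -0.46 to 0.16 in Vkine against EV, from -0.10 to 0.30 in Vkine + LPS against EV + LPS and from -0.061 to 0.563 in the interaction. Likewise, in EV + LPS against EV Hspa8 ran from -0.114 to 0.041 and Hsp90ab1 from -0.071 to 0.032. Dnajb1 ran from -0.028 to 0.035 in Vkine + LPS against Vkine, Hsph1 from -0.028 to 0.021 in Vkine + LPS against EV + LPS and from -0.025 to 0.062 in the interaction, Hspe1 from -0.146 to 0.086 in the interaction and Hsf1 from -0.005 to 0.29 in CD45 cells. The causes were not tested.

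The all-gene median of the interaction was -0.104 with upper-quartile factors and -0.123 and -0.161 on FPKM; relative to it on FPKM + 1, Hsf1 was 0.68, Hspa1b 0.60 and Hsp90aa1 -0.80. In Vkine + LPS against Vkine it was -0.108 on FPKM + 0.1, and relative to it Hspd1 was 0.41 and Hspa8 0.24. Deviations from the group means over all genes tested were not shared by same-numbered libraries (correlations -0.101 to 0.096 in MutuDC). Such correlations cannot tell whether these libraries shared a culture or batch, which the labels do not give. With the block in edgeR, Hspa1b in Vkine against EV was -0.44 (adjusted p = 0.057) and Hspe1 in EV + LPS against EV 0.26 (adjusted p = 0.0964), neither called. With 13 to 58 reads a library, Hspa1a in MutuDC has the least precision of the 10 genes.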
